A study of Arabidopsis thaliana with 12 samples.

Results

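FPKM (fragments per kilobase of transcript, scaled by a factor for each library) were deposited for 23069 genes. The 10 of them described here belong to the response of *Arabidopsis thaliana* to iron deficiency. They are the IRON MAN peptide genes *IMA1*, *IMA2* and *IMA3*, the bHLH subgroup Ib genes *bHLH38*, *bHLH39*, *bHLH100* and *bHLH101*, the transporter gene *OPT3*, the ferric reductase gene *FRO3* and the ferritin gene *FER1*. The list was drawn up by locus, with *IMA1* entered because it was strongly lowered in these libraries, so its values and those of the genes listed with it are a description of the difference between the genotypes and not a test of it. RNA-seq was performed on rosette leaves of 30-day-old plants in 3 libraries of the *kaku4-2* mutant and 3 libraries of the WT. The *kaku4-2* mutant carries a T-DNA insertion that knocks down *KAKU4*, a gene for a plant-specific component of the nuclear lamina, in the Col-0 background of the WT. Each library came from an independent biological sample of soil-grown plants, and no treatment with low or high iron is named. The study asked how KAKU4 acts on chromatin and on the expression of genes in leaves.

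Iron is needed for photosynthesis, respiration and chlorophyll synthesis, and free iron is toxic, so plants adjust uptake, transport and storage to their needs. In *Arabidopsis*, the bHLH subgroup IVc factors, which include ILR3 and bHLH104, activate the bHLH Ib genes and the IRON MAN genes when iron is short. The bHLH Ib proteins pair with FIT in roots to activate uptake genes, and in leaves they are widely used as markers of iron shortage. The IRON MAN peptides are short, rich in aspartate at their carboxy terminus, and counteract BTS, a ubiquitin ligase that marks subgroup IVc factors for breakdown. OPT3 loads iron into the phloem and takes part in the signal of leaf iron status to the root. Ferritins store iron in plastids and rise when iron is plentiful.

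The IRON MAN genes are shown by their coding sequences, since the part that defines the family lies at the end of the peptide. The sequences were read 5′ to 3′ from the RefSeq annotation of TAIR10.1, and the 51 bases in capitals encode the last 17 residues before the stop codon.
IMA1: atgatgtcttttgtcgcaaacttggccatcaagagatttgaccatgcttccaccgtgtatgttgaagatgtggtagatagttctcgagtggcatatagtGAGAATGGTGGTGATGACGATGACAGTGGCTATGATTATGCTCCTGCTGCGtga
IMA2: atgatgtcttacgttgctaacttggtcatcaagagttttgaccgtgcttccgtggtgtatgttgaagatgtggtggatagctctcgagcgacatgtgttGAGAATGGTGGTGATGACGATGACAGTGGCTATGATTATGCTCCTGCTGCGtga
IMA3: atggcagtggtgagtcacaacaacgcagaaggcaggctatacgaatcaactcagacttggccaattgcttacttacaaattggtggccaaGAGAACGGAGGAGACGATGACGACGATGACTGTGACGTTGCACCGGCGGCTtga
They lie on the forward strand at chr1:17385818-17385970, chr1:17383117-17383269 and chr2:13108068-13108211, each in 1 coding exon. The encoded peptides have 50, 50 and 47 residues. Of the last 17 residues, 13 were identical in all 3 peptides, with 5, 5 and 7 aspartates. IMA1 and IMA2 were identical at 82.0% of aligned positions, whereas IMA1 and IMA3 shared 34.5% and IMA2 and IMA3 31.5%. *IMA1* and *IMA2* are neighbours, with 1876 bases between them. Their transcripts share an identical run of up to 59 bases, which is shorter than the reads described in the paper. How reads were divided between these genes was not tested.

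Among the libraries, *kaku4-2* replicate 3 stood apart. Its log2(FPKM + 0.1) values correlated with those of the other libraries at 0.895 to 0.936 across the genes tested, against 0.963 to 0.981 among the other 5 libraries. The FPKM sums were 829805 to 1285627 in *kaku4-2* and 1298744 to 1767459 in the WT, so every *kaku4-2* library had the lower sum. *KAKU4* (AT4G31430) measured 0.402, 0.433 and 0.313 FPKM in the *kaku4-2* replicates, against 2.69, 3.61 and 2.51 FPKM in the WT replicates, which fits the labels (log2 fold change -2.64, standard error 0.41, adjusted p = 0.00933 by limma with Benjamini-Hochberg adjustment). Of 20638 genes tested with limma, 6.64% were lower and 5.02% higher in *kaku4-2* by the cutoff of the study, which asks that the median FPKM of the genotypes differ by 0.6 or more on the log2 scale and that P before adjustment be 0.05 or less. With this cutoff the paper reports more genes in each direction, and more higher than lower. It does not name the test behind its P, and the calls given here are those of limma and differ from its own. The balance moved with scaling of the libraries. Median ratio scaling gave 1156 lower and 1207 higher genes and quantile normalization 1030 and 1097, beside 1370 and 1037 without scaling. Why the calls differ from those of the paper was not tested. The shares given here are from the fit without scaling, in which 0.237% were lower and 0.242% higher at an adjusted p of 0.05.

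All 3 IRON MAN genes were lower in every *kaku4-2* library than in every WT library. *IMA1* (AT1G47400, chr1:17385707-17386485, 1 exon) had 47.4, 50.4 and 19.9 FPKM in *kaku4-2* replicates 1, 2 and 3, against 229, 302 and 385 FPKM in WT replicates 1, 2 and 3. The groups did not overlap, and *kaku4-2* replicate 3 was the lowest library. The means were 39.2 ± 16.8 FPKM in *kaku4-2* and 305 ± 78.0 FPKM in the WT (SD, n = 3 each), and the log2 fold change was -3.04 (standard error 0.36). *IMA2* (AT1G47395, chr1:17382998-17383830) had 145, 182 and 83.9 FPKM in *kaku4-2*, against 529, 710 and 1063 FPKM in the WT, a log2 fold change of -2.50 (standard error 0.36). *IMA3* (AT2G30766, chr2:13107583-13110480) was the most abundant of the 10 genes in both genotypes, with 976, 1017 and 483 FPKM in *kaku4-2* and 2514, 3136 and 4038 FPKM in the WT. Its log2 fold change was -2.02 (standard error 0.40), the smallest of the 3 in size. In a bulk leaf sample, fewer cells of a type and less RNA per cell cannot be told apart.

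**Figure D1:**
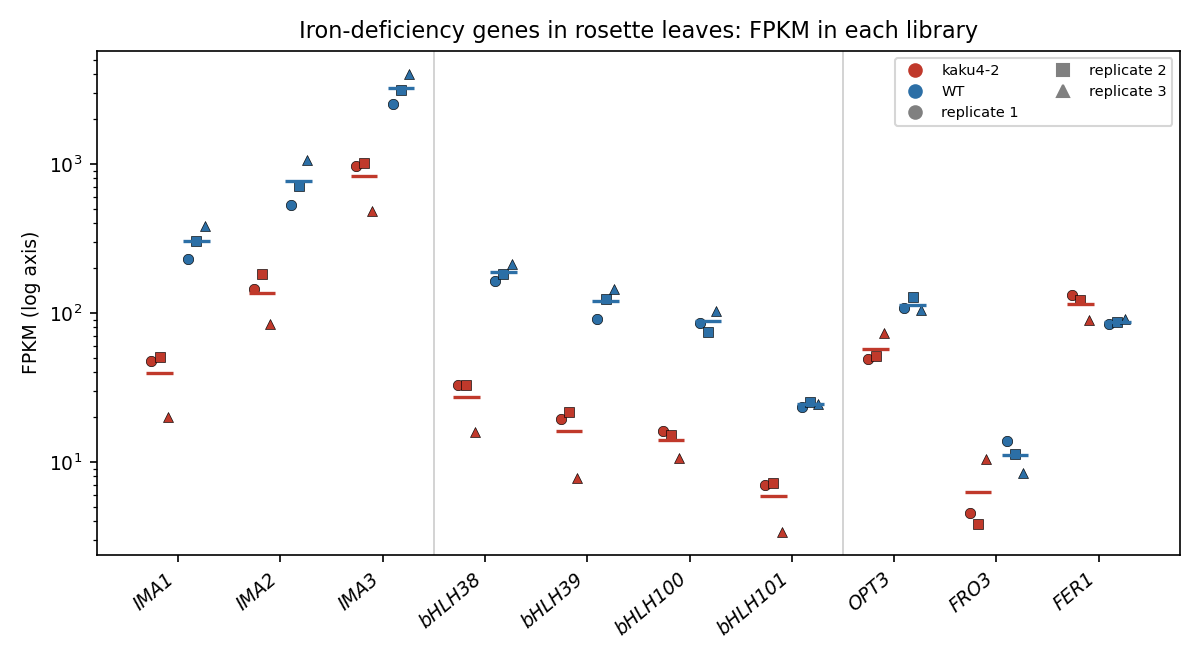
FPKM on a log axis of the 10 iron-deficiency genes in each library, with *kaku4-2* (red) left of WT (blue), marker shapes for replicates 1 to 3 and horizontal bars for group means. The red and blue points are separate for the 7 IRON MAN and bHLH Ib genes and for *OPT3*, and overlap for *FRO3* and *FER1*.

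Together the IRON MAN genes held 0.0938%, 0.0971% and 0.0708% of the FPKM sum in the *kaku4-2* libraries, against 0.252%, 0.271% and 0.310% in the WT libraries. The separation of the genotypes was thus also seen relative to the sum of each library. The ratio of *IMA2* to *IMA1* was 3.06, 3.61 and 4.22 in *kaku4-2* and 2.31, 2.35 and 2.76 in the WT. *IMA3* overlaps 2 genes annotated on the opposite strand, and the use of strand in the counting is not given in the sources used here. Of these, *CYP71A13*, a gene of camalexin synthesis, averaged 19.5 ± 1.97 FPKM in *kaku4-2* and 11.4 ± 1.13 FPKM in the WT (SD, n = 3 each), far below *IMA3*. The other, AT2G30760, has no row in the table.

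The 4 bHLH Ib genes were also lower in every *kaku4-2* library. *bHLH38* (AT3G56970, chr3:21084035-21085245) had 32.9, 33.0 and 16.0 FPKM in *kaku4-2*, against 164, 182 and 214 FPKM in the WT (log2 fold change -2.84, standard error 0.32). *bHLH39* (AT3G56980, chr3:21086390-21087710), its neighbour on the reverse strand with 1144 bases between them, had 19.3, 21.5 and 7.79 FPKM in *kaku4-2*, against 91.2, 124 and 145 FPKM in the WT (log2 fold change -2.98, standard error 0.37). Neither gene of this pair showed overlap between the genotypes, and the ratio of *bHLH38* to *bHLH39* was 1.70, 1.53 and 2.05 in *kaku4-2* and 1.80, 1.47 and 1.48 in the WT. *bHLH100* (AT2G41240, chr2:17198037-17199454) had 16.1, 15.2 and 10.6 FPKM in *kaku4-2*, against 86.1, 74.5 and 103 FPKM in the WT (log2 fold change -2.65, standard error 0.28). *bHLH101* (AT5G04150, chr5:1138410-1139633) was the weakest of the 4, with 7.0, 7.26 and 3.39 FPKM in *kaku4-2* and 23.4, 25.4 and 24.3 FPKM in the WT (log2 fold change -2.11, standard error 0.33). Within each of these genes *kaku4-2* replicate 3 was the lowest library. The proteins bHLH38 and bHLH39 were identical at 79.1% of aligned positions, bHLH39 and bHLH100 at 60.7%, and bHLH101 shared 32.1% to 39.0% with the others. The longest identical run of the *bHLH38* and *bHLH39* transcripts was 34 bases. *bHLH38* overlaps *PIP5K4* on the opposite strand over 386 bases, and *bHLH101* overlaps *GLU1* over 79 bases. *PIP5K4* averaged 0.190 FPKM in *kaku4-2* and 0.0793 FPKM in the WT, far below *bHLH38*, while *GLU1*, a glutamate synthase gene, had 9.98, 12.2 and 46.3 FPKM in *kaku4-2* and 11.3, 14.5 and 9.16 FPKM in the WT. The smallest number of fragments estimated behind a value of the 10 genes was 83.0, for *bHLH101* in *kaku4-2* replicate 3.

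The remaining 3 genes act in transport, reduction and storage, and their differences were smaller. *OPT3* (AT4G16370, chr4:9247302-9250343) had 48.7, 51.0 and 72.8 FPKM in *kaku4-2*, against 108, 129 and 104 FPKM in the WT, with no overlap (log2 fold change -1.0, standard error 0.27). *FRO3* (AT1G23020, chr1:8149868-8153796), which encodes a mitochondrial ferric reductase, had 4.55, 3.82 and 10.5 FPKM in *kaku4-2* and 13.8, 11.2 and 8.40 FPKM in the WT (log2 fold change -0.93, standard error 0.39). Here *kaku4-2* replicate 3 lay within the WT range, while replicates 1 and 2 lay below it. *FER1* (AT5G01600, chr5:227953-230051) had 131, 123 and 89.8 FPKM in *kaku4-2* and 84.2, 87.0 and 91.1 FPKM in the WT (log2 fold change 0.37, standard error 0.27). In this gene *kaku4-2* replicates 1 and 2 lay above the WT and replicate 3 within it. *FER1* overlaps the long non-coding RNA gene AT5G01595 on the opposite strand over 1334 bases, which averaged 1.92 ± 0.769 FPKM in *kaku4-2* and 4.64 ± 1.1 FPKM in the WT (SD, n = 3 each).

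By the cutoff of the study, 9 of the 10 genes were lower in *kaku4-2*, all but *FER1*, where 6.64% of all genes were. *FRO3* did not pass when *kaku4-2* replicate 1 (-0.78) or 2 (-0.65) or WT replicate 1 (-0.76) or 2 (-0.91) was left out, values on the log2 scale, nor with quantile normalization or with no trend of the prior variance. Under quantile normalization *OPT3* did not pass (-0.60) and *FER1* was higher by the cutoff (0.79). The *kaku4-2* libraries lay below all WT libraries in 8 of the 10 genes, where 15.0% of all genes did, and 7.92% of all genes lay above. At an adjusted p of 0.05, 7 of the 10 were lower, where 0.237% of all genes were. The genes were chosen with this contrast known, so these counts only describe the choice. Their median log2 fold change was -2.30, beside -0.02 over all genes tested.

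The order of levels differed between the genotypes. In *kaku4-2*, *IMA3* was followed by *IMA2* (137 FPKM), *FER1* (115 FPKM), *OPT3* (57.5 FPKM), *IMA1* (39.2 FPKM), *bHLH38* (27.3 FPKM), *bHLH39* (16.2 FPKM), *bHLH100* (13.9 FPKM), *FRO3* (6.28 FPKM) and *bHLH101* (5.88 FPKM). Neighbours in this order overlapped between *IMA2* and *FER1*, from *OPT3* down to *bHLH100*, and between *FRO3* and *bHLH101*. In the WT, *IMA3* (3229 FPKM) was followed by *IMA2* (767 FPKM), *IMA1* (305 FPKM), *bHLH38* (187 FPKM), *bHLH39* (120.0 FPKM), *OPT3* (113 FPKM), *bHLH100* (87.7 FPKM), *FER1* (87.5 FPKM), *bHLH101* (24.3 FPKM) and *FRO3* (11.1 FPKM). There only *bHLH39* and *OPT3*, and *bHLH100* and *FER1*, overlapped with the next gene. *FER1* was thus above *IMA1* in every *kaku4-2* library and below it in every WT library.

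Because *kaku4-2* replicate 3 deviated with transcript length, the values were also set beside genes of like length. Without this library, the log2 fold changes were -2.61 for *IMA1*, -2.18 for *IMA2*, -1.67 for *IMA3*, -2.49 for *bHLH38*, -2.52 for *bHLH39*, -2.47 for *bHLH100* and -1.76 for *bHLH101*. All 7 differences were smaller than with all libraries. The genotypes of these genes were already separate, and leaving out a library cannot make them overlap. For *OPT3*, *FRO3* and *FER1* the differences were larger without *kaku4-2* replicate 3, at -1.18, -1.37 and 0.54. The genotypes of *FRO3* and *FER1* then no longer overlapped. The 1071 genes within 10% of the length of *IMA1* (779 bases) had a median log2 fold change of -0.57, and of -0.24 without *kaku4-2* replicate 3. The 1950 genes within 10% of the length of *OPT3* (2698 bases) had medians of 0.36 and 0.06. The short genes of the list therefore stood among genes that were lower on the whole, and the long ones among genes that were higher, by less than their own differences. Lengths were those of the longest RefSeq transcript, and the annotation behind the FPKM is not given in the sources used here. *IMA3* was thus taken as 1995 bases long, with a median of 0.11 for genes of like length. After correction for length, the values were -2.50 for *IMA1*, -2.13 for *IMA3*, -2.70 for *bHLH39*, -1.34 for *OPT3* and 0.52 for *FER1*.

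**Figure D2:**
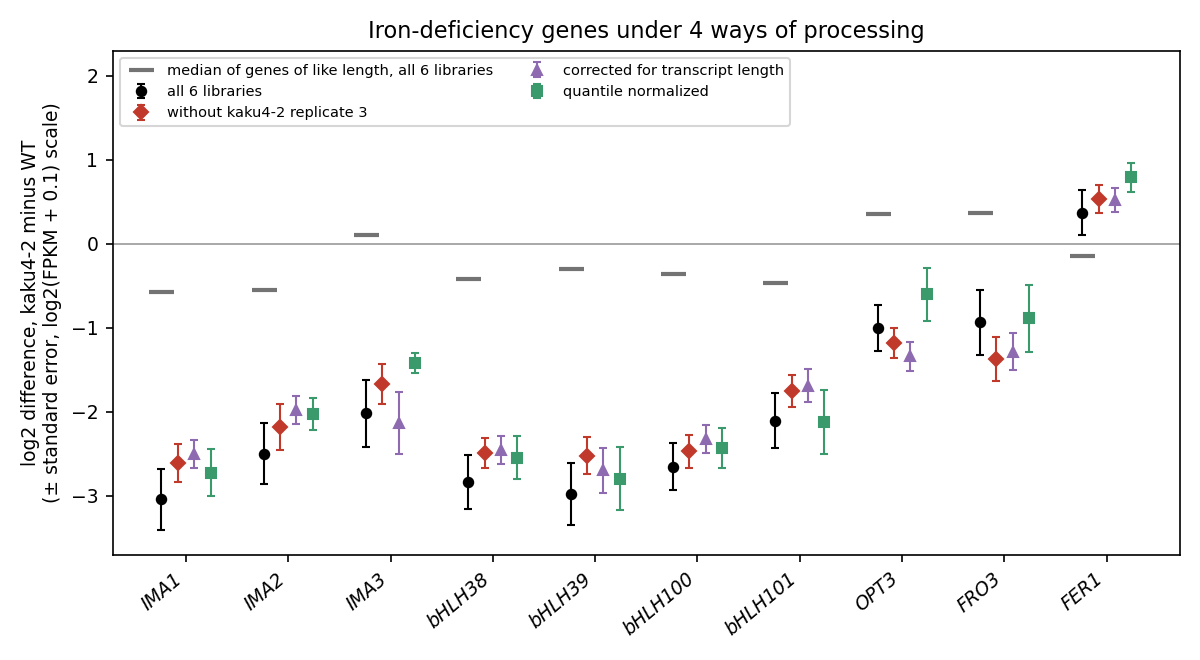
Log2 difference of *kaku4-2* minus WT with its standard error for the 10 genes, from all 6 libraries, without *kaku4-2* replicate 3, after a correction for transcript length and after quantile normalization. Grey bars are medians of genes of like length, and the IRON MAN and bHLH Ib genes stay between -1.42 and -3.04 in the 4 fits.

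The promoters were searched for short motifs, which are independent of expression. The window ran from 250 bases before to 50 bases after the annotated start, on both strands. The G-box CACGTG, a form of the E-box CANNTG to which bHLH factors bind, was found in 4 of the 10 windows, at -97 in *bHLH38*, -91 in *bHLH100*, -78 in *OPT3* and -3 in *FRO3*, counted in bases from the start. It was in 7.68% of 27443 promoters of protein-coding genes. CANNTG was in 8 of the 10 windows, all but *bHLH101* and *FER1*, and in 61.7% of all promoters. The ferritin core motif CACGAGGC (0.197% of promoters) and the PHR1 site GNATATNC (6.25%) were in none of the 10 windows. Bases outside the window were not searched, so *FER1* may hold such sites further from the start. The windows of the neighbours *bHLH38* and *bHLH39* and of *bHLH100* are printed because 2 of these 3 closely related genes hold a G-box, in capitals.
bHLH38: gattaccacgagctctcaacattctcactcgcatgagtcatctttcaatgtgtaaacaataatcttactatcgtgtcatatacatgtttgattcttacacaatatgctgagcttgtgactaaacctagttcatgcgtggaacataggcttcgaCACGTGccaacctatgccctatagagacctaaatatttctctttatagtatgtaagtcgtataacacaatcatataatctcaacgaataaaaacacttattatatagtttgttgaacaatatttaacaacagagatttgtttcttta
bHLH39: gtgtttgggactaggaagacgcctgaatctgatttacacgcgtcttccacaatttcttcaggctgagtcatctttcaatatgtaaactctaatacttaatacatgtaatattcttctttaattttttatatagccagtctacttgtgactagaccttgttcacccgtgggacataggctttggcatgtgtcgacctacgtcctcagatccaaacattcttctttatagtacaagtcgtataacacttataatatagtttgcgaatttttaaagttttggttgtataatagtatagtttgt
bHLH100: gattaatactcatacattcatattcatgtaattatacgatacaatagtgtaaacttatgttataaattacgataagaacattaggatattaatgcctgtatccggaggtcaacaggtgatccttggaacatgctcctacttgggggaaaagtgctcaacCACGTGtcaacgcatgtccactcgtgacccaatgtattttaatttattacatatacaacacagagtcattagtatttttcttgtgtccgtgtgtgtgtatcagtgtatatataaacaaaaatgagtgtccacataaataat
They cover chr3:21085196-21085495, chr3:21087661-21087960 and chr2:17199405-17199704 of TAIR10.1, on the reverse strand. *bHLH38* and *bHLH39* had similar log2 fold changes, with and without a G-box in the window. A match to these letters does not show that a factor binds there.

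The genes whose profile over the 6 libraries was most like that of *IMA1* were sought among the 16495 genes that averaged 1 FPKM or more. The measure was the root mean square difference of mean-centred log2(FPKM + 0.1) values. The closest were *bHLH39* (0.0558), AT2G14247 (0.167), *bHLH38* (0.173), AT1G13609 (0.215) and AT1G24580 (0.252). *IMA2* ranked 6, *bHLH100* 8, *bHLH101* 15 and *IMA3* 16, whereas *OPT3*, *FRO3* and *FER1* ranked 2618, 6143 and 10612. AT2G14247 had 63.3, 71.7 and 27.1 FPKM in *kaku4-2*, against 235, 351 and 435 FPKM in the WT. AT1G24580 had 3.73, 4.45 and 2.29 FPKM in *kaku4-2*, against 19.4, 20.1 and 35.6 FPKM in the WT. These genes were picked for their likeness to *IMA1*, which fixes the order of their libraries.

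Other iron genes were taken from lists by known role, 69 of which are in the table and 64 were tested. By the cutoff of the study, 9 of the 64 were lower (14.1%) and 4 higher (6.25%) in *kaku4-2*, beside 6.64% and 5.02% of all genes, and their median log2 fold change was -0.15. None of the 9 tested genes for iron sensing and upstream regulation passed it, with log2 fold changes of -0.77 to 0.78 and a median of -0.37. The most abundant of them were *ILR3*, with 127 ± 29.4 FPKM in *kaku4-2* and 176 ± 20.4 FPKM in the WT, and *bHLH104*, with 52.5 ± 18.3 FPKM in *kaku4-2* and 73.5 ± 15.4 FPKM in the WT (SD, n = 3 each). Of the 8 tested genes of root iron uptake, only *F6'H1*, which encodes an enzyme of coumarin synthesis, passed the cutoff. It had 6.90, 5.71 and 6.18 FPKM in *kaku4-2*, against 1.90, 0.740 and 0.565 FPKM in the WT. It was higher in all 3 *kaku4-2* libraries (log2 fold change 2.61, standard error 0.43, adjusted p = 0.0138 by limma and Benjamini-Hochberg, with alternatives from 0.00210 to 0.0851), and a pseudocount of 1 gave a log2 fold change of 1.86.

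**Figure D3:**
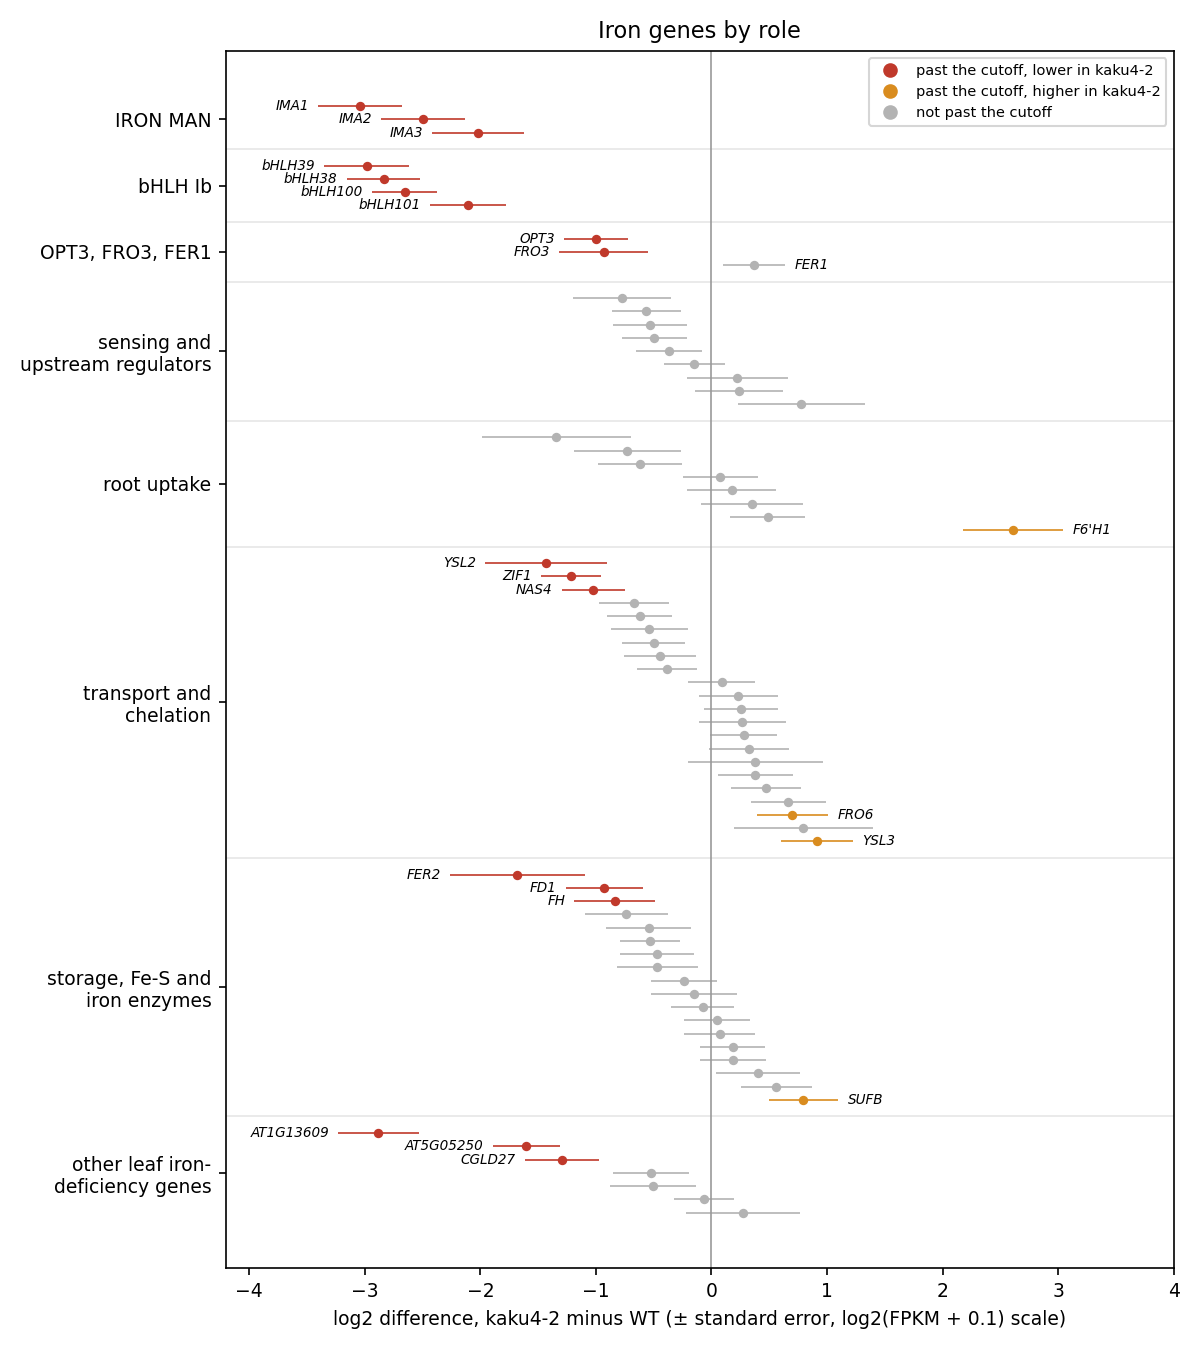
Log2 difference of *kaku4-2* minus WT with its standard error for each tested iron gene, grouped by role from top to bottom, with red for genes lower and orange for genes higher in *kaku4-2* by the cutoff of the study. The IRON MAN and bHLH Ib genes lie at -2.02 and below, and the 9 regulators lie on both sides of 0, with a median of -0.37.

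Among 22 tested genes of iron transport and chelation, 3 were lower and 2 higher in *kaku4-2*. *ZIF1*, a vacuolar transporter of the metal chelator nicotianamine, had 43.5, 37.4 and 31.2 FPKM in *kaku4-2*, against 85.4, 88.2 and 84.5 FPKM in the WT (log2 fold change -1.21, standard error 0.26, adjusted p = 0.0647 by limma and Benjamini-Hochberg, with alternatives from 0.0144 to 0.338). *NAS4*, a nicotianamine synthase gene, had 21.1, 18.7 and 16.0 FPKM in *kaku4-2*, against 45.8, 37.7 and 31.1 FPKM in the WT (log2 fold change -1.02). Both genes had separate genotypes, as did 15.0% of all genes in this direction. *YSL2*, for a transporter of metal and nicotianamine complexes, had 0.453, 0.521 and 1.80 FPKM in *kaku4-2* and 2.14, 3.57 and 1.46 FPKM in the WT, with overlap, while its relative *YSL3* was higher at 20.0 ± 1.67 FPKM in *kaku4-2* and 11.04 ± 3.98 FPKM in the WT (SD, n = 3 each). *FRO6*, a leaf ferric reductase gene, was higher by the cutoff at 70.0 ± 18.2 FPKM in *kaku4-2* and 43.6 ± 14.5 FPKM in the WT (log2 fold change 0.70), with overlap. The calls of *FRO6*, *YSL2* and *YSL3* depended on single libraries. The log2 fold change of *FRO6* did not pass without *kaku4-2* replicate 1 (0.73) or 3 (0.50) or WT replicate 2 (0.56) or 3 (0.58). That of *YSL2*, -1.43 in all libraries, did not pass without *kaku4-2* replicate 1 (-1.11) or WT replicate 1 (-1.46) or 2 (-1.11), and that of *YSL3*, 0.91 in all libraries, did not pass without WT replicate 2 (0.66). After length correction, *FRO6* (0.34) and *YSL3* (0.54) did not pass either, nor did *FRO6* with no trend of the prior variance (0.70), and a pseudocount of 1 gave -0.84 for *YSL2*.

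Of the 18 genes for ferritins, iron-sulfur assembly and iron enzymes, 3 were lower and 1 higher. *FER2*, the seed ferritin gene, was weakly expressed, with 0.0577, 0.105 and 0.367 FPKM in *kaku4-2* and 1.09, 0.495 and 0.606 FPKM in the WT. The leaf ferritins *FER3* (23.1 ± 2.99 FPKM in *kaku4-2* and 33.3 ± 0.202 FPKM in the WT) and *FER4* (35.0 ± 15.4 FPKM in *kaku4-2* and 48.0 ± 11.8 FPKM in the WT) did not pass the cutoff. FER1 was identical to FER3 and FER4 at 61.0% and 61.7% of aligned residues. The other lower genes were *FD1*, for a leaf ferredoxin (994 ± 104 FPKM in *kaku4-2* and 1892 ± 161 FPKM in the WT), and *FH*, for frataxin (28.4 ± 12.4 FPKM in *kaku4-2* and 47.4 ± 7.98 FPKM in the WT). *SUFB*, for a plastid iron-sulfur scaffold, was higher, at 39.8 ± 6.45 FPKM in *kaku4-2* and 23.6 ± 8.46 FPKM in the WT (SD, n = 3 each). Each of these 4 calls was lost when certain single libraries were left out, and 3 of them under other processing. The log2 fold change of *FER2* (-1.68) did not pass without *kaku4-2* replicate 1 (-1.36) or WT replicate 1 (-1.39), and that of *FH* (-0.84) without *kaku4-2* replicate 3 (-0.42) or WT replicate 2 (-0.76) or 3 (-0.76). That of *FD1* (-0.93) did not pass without WT replicate 2 (-0.91) or 3 (-0.88), nor that of *SUFB* (0.80) without WT replicate 2 (0.62) or 3 (0.69). After length correction, *FER2* (-1.35) and *FH* (-0.41) did not pass, and after quantile normalization *FD1* (-0.36) and *FH* (-0.64) did not. *FH* was also lost with no trend of the prior variance (-0.84). Pseudocounts of 1 and 0.01 gave -0.55 and -2.29 for the weak gene *FER2*.

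Among 7 tested further genes listed as responding to iron deficiency, 3 were lower in *kaku4-2*. AT1G13609 had 8.93, 7.88 and 3.85 FPKM in *kaku4-2*, against 36.7, 60.6 and 50.9 FPKM in the WT (log2 fold change -2.88, or -2.27 after length correction, standard error 0.35, adjusted p = 0.00221 by limma and Benjamini-Hochberg, with alternatives from 9.39e-07 to 0.0448). AT5G05250 had 83.9, 73.6 and 49.6 FPKM in *kaku4-2*, against 181, 204 and 233 FPKM in the WT (log2 fold change -1.60, standard error 0.29, adjusted p = 0.0282 by limma and Benjamini-Hochberg, with alternatives from 0.00723 to 0.171). *CGLD27*, for a plastid protein, had 202, 203 and 103 FPKM in *kaku4-2*, against 373, 381 and 437 FPKM in the WT (log2 fold change -1.29). The genotypes were separate in all 3 genes, which were named because they passed the cutoff on these libraries. Of the 64 tested iron genes outside the 10, AT1G13609, AT5G05250 and *F6'H1* had an adjusted p of at most 0.05 by limma and Benjamini-Hochberg.

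**Figure D4:**
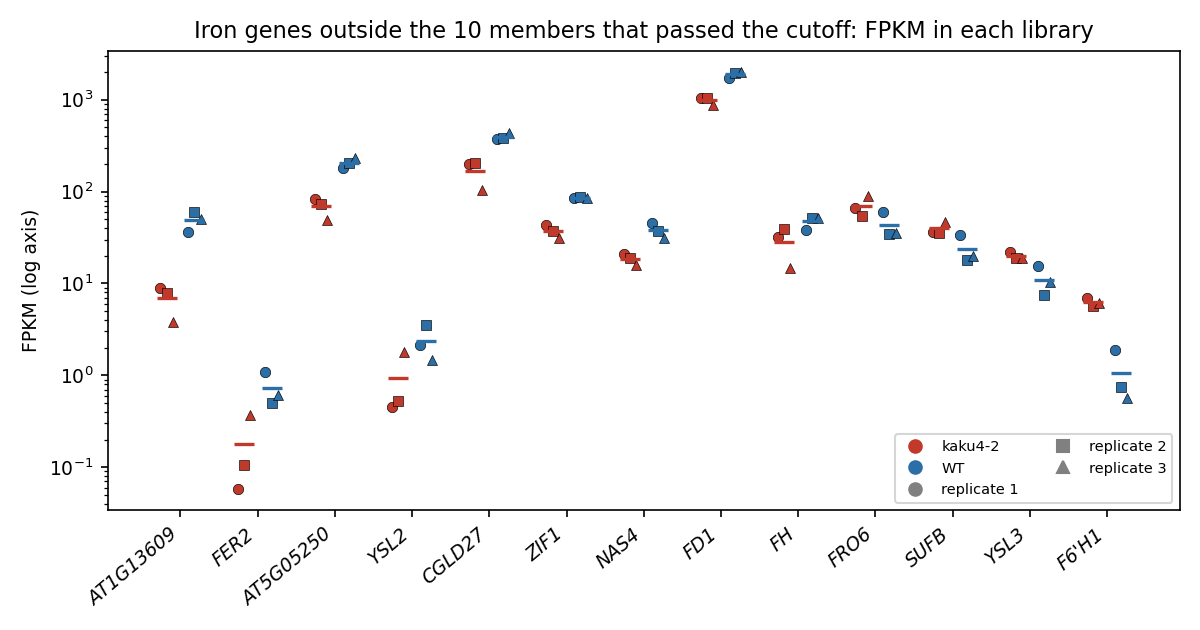
FPKM on a log axis in each library of the 13 iron genes outside the 10 that passed the cutoff, ordered by log2 difference, with *kaku4-2* (red) left of WT (blue) and bars for group means. The genotypes overlap in *YSL2*, *FH* and *FRO6* and are separate in the other 10 genes. Of all genes tested, 15.0% lay fully below the WT and 7.92% fully above. The 13 were shown because they passed the cutoff on these same libraries, so this separation follows largely from the choice.

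Markers of other tissues were read beside these results. None of 10 tested phloem markers passed the cutoff, where 6.64% of all genes were lower and 5.02% higher. The summed level of the 11 in the table was 293 to 319 FPKM in *kaku4-2* and 355 to 398 FPKM in the WT. The companion cell gene *SUC2* had 13.7, 16.1 and 35.9 FPKM in *kaku4-2* and 19.7, 26.3 and 18.8 FPKM in the WT, with overlap. The 7 leaf mesophyll markers in the table summed to 29727 to 32083 FPKM in *kaku4-2* and 34675 to 47890 FPKM in the WT, and none passed the cutoff. Root markers were at or near 0, with the 6 in the table summing to 0.0577 to 0.269 FPKM in *kaku4-2* and 0.205 to 0.366 FPKM in the WT. The phloem and mesophyll sums were lower in every *kaku4-2* library on the deposited scale, as were the FPKM sums of the libraries. As a share of the FPKM sum, the phloem markers held 0.0256%, 0.0242% and 0.0353% in *kaku4-2* and 0.0307%, 0.0232% and 0.0206% in the WT. The mesophyll markers held 2.39%, 2.44% and 3.87% in *kaku4-2* and 2.67%, 3.13% and 2.45% in the WT. The genotypes overlapped in both shares. Whether the make-up of the leaf samples differed was not tested.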

How the data were processed

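RNA-seq libraries of *kaku4-2* and WT rosette leaves (3 each) were grouped by their labels. Reads had been mapped by the authors with TopHat2 2.0.9 against TAIR10, and FPKM from Cufflinks were deposited for 23069 genes; the Cufflinks version and the use of strand are not given in the sources used here. FPKM are not counts, so count models were not applied. The 20638 genes that averaged 0.1 FPKM or more were fitted on log2(FPKM + 0.1) by limma 3.58.1 (R 4.3.3), without covariates, letting the prior variance follow the mean, and P was two-sided. The added 0.1 understates the change of weak genes. Fragments behind a value were estimated from the spacing of low FPKM values, where 32.9% to 41.3% lay within 0.03 of a whole fragment, against 6% by chance; 1 fragment per kilobase was worth 0.0313 to 0.0518 FPKM. The fit was tested on simulated data.

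The 10 genes and all other lists were chosen with earlier results of these data known. Named were the 10 genes, *KAKU4*, every other listed iron gene past the cutoff (for a list with none, the 2 with the highest mean FPKM), the 5 genes with the profile most like that of *IMA1*, *FER2* to *FER4* and overlapping genes; *SUC2* was named after its values were seen. Positions, coding sequences and promoters came from the RefSeq annotation of TAIR10.1, in which 22881 loci of the table were found. Proteins were translated from it and aligned globally with BLOSUM62. Alternatives were another pseudocount, filter, scaling or prior, a length correction, the fold from limma, a replicate block and leaving out each library. The ChIP-seq libraries were not analysed here.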

Additional observations from a re-analysis of the deposited data

How the results depend on the processing

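The log2 fold changes of the 10 genes kept their direction in all 16 alternatives. The 7 IRON MAN and bHLH Ib genes passed the cutoff in each of them, *OPT3* in all but quantile normalization, *FRO3* in 10 and *FER1* only under quantile normalization. The 10 genes were chosen with this contrast known and the alternatives refit the same libraries, so these counts describe the genes and do not test them. Another filter, no trend of the prior variance, a replicate block and the fold from limma cannot move a log2 fold change. They can only change whether a gene passes the cutoff. Of 160 values, which include those of these settings, 155 moved by less than the spread between replicates or not at all. The others were *IMA3* (-1.42), *OPT3* (-0.60) and *FER1* (0.79) under quantile normalization and *bHLH100* (-2.32) and *OPT3* (-1.34) after length correction. Leaving out single libraries gave -3.28 to -2.61 for *IMA1* and -1.37 to -0.65 for *FRO3*. The same-numbered libraries did not deviate together (correlations -0.16, -0.03 and -0.41), and a replicate block gave 1017 lower and 706 higher genes, with 8 lower and 3 higher among the other iron genes, beside 1370, 1037, 9 and 4 without it. Leave-one-out fits gave 673 to 2660 lower and 546 to 1512 higher genes, and 8 to 237 lower and 12 to 149 higher at an adjusted p of 0.05, beside 49 and 50. The lowest counts at the cutoff came without WT replicate 3, and most lower genes without *kaku4-2* replicate 2. At an adjusted p of 0.05 there were 29 lower and 33 higher genes with no filter, 17 and 19 with no trend of the prior variance, and 97 and 179 after length correction. Length correction gave 1135 lower and 1405 higher genes at the cutoff. Among the other iron genes, leave-one-out fits called 6 to 13 lower and 1 to 7 higher, with 1 higher when WT replicate 2 was left out and 2 when WT replicate 3 was, and quantile normalization called 7 higher. The causes were not tested. Of 254 values of single genes outside the 10, none changed direction and 36 no longer passed the cutoff. These genes were picked because they passed the cutoff on these same libraries, so keeping their direction follows largely from the choice. Here too, the values from the settings that cannot move a log2 fold change are counted. With the promoter window ending at the start, 3 of the 10 genes held a G-box and 7 an E-box. The smallest value above 0 was the same in every library (0.0577 FPKM) and was held by 416 to 681 genes in each. *FER2* in *kaku4-2* replicate 1 was at this value, and the root markers were at or near 0, so these values are uncertain. What sets this smallest value was not tested.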

Other observations

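Genes that respond to zinc or copper deficiency were read from the same fit. Of 13 tested, 3 were lower in *kaku4-2* by the cutoff and none higher, beside 6.64% and 5.02% of all genes. None of the 13 had an adjusted p of at most 0.05 by limma and Benjamini-Hochberg. Their median log2 fold change was -0.26. *ZIP4* had 5.01, 5.88 and 6.44 FPKM in *kaku4-2*, against 13.1, 10.5 and 10.7 FPKM in the WT. *ZIP5* had 2.60, 3.41 and 3.85 FPKM in *kaku4-2*, against 5.88, 7.66 and 6.15 FPKM in the WT. Both encode transporters of the ZIP family. In both, all *kaku4-2* libraries lay below all WT libraries, as in 15.0% of all genes. Their adjusted p was 0.194 and 0.231 by limma and Benjamini-Hochberg, with alternatives from 0.0508 to 0.636 and from 0.0683 to 0.703. *ZIP9* was weak (log2 fold change -1.11, or -0.40 with a pseudocount of 1), at 0.256 ± 0.0878 FPKM in *kaku4-2* and 0.663 ± 0.158 FPKM in the WT (SD, n = 3 each), and was called in 7 of 15 alternatives and in none that left out a library (-1.30 to -0.98). *ZIP5* (log2 fold change -0.98) did not pass the cutoff without WT replicate 2 (-0.87).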
